A study of Mus musculus with 16 samples.

Results

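The stress keratins of newborn mouse epidermis were followed through their 4 genes, Krt6a, Krt6b, Krt16 and Krt17, which were chosen by gene name from the 24981 genes of each expression table. The study separated epidermis of neonates (p0 to p2, days 0 to 2) on a Percoll gradient into suprabasal and basal keratinocytes and sequenced total RNA. Of the 16 libraries, 8 came from Fvb/N mice with the label Dlx3 WT (4 suprabasal and 4 basal), and 8 from mice of a mix of CD-1 and C57BL/6 (2 each of KO suprabasal, WT suprabasal, KO basal and WT basal, named for the Dlx3 genotype). How the Dlx3 knockout was made, whether animals were pooled, and whether the replicates are separate animals are not given in the sources used here. The p-values therefore measure only the spread between libraries, which may be technical. All 4 genes passed the filter on low values in both tables.

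Keratins form intermediate filaments from pairs of one type I and one type II protein. Basal keratinocytes use Krt5 with Krt14, and suprabasal keratinocytes change to Krt1 with Krt10. Krt6a and Krt6b are type II keratins, and Krt16 and Krt17 are the type I keratins they pair with. In resting skin they are known from the hair follicle, the nail and the sole, and they are induced in the epidermis between follicles by wounding, inflammation and barrier defects, for which they are called stress keratins. Krt17 is also abundant in fetal and newborn skin. Dlx3 is a homeobox transcription factor of differentiating keratinocytes and of the hair follicle.

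In GRCm38, the assembly also named mm10, Krt6a lies on the minus strand at chr15:101689910-101694307 with 9 exons, and Krt6b lies beside it at chr15:101676023-101680287 with 9 exons. Krt16 is at chr11:100246091-100248902 and Krt17 at chr11:100256217-100261029, both on the minus strand with 8 exons in GENCODE M21. Over the 8 exons of equal coding length, 1394 of 1426 coding bases of Krt6a and Krt6b are identical (97.8%). The most different 60 coding bases of these exons, in exon 4, are printed as an example of a stretch that can assign a read to one of the 2 genes. Capitals mark the 10 bases that differ (Krt6a chr15:101692484-101692543, Krt6b chr15:101678303-101678362, minus strand).
Krt6a: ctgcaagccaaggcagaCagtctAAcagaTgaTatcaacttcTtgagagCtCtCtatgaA
Krt6b: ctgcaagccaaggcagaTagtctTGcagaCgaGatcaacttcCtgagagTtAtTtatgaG

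Reads can also be shared with the abundant basal keratins. The next 2 runs are printed because they are identical in a stress keratin and in a basal keratin. The first stands in exon 1 of Krt6a (chr15:101693865-101693972) and of Krt5 (chr15:101712397-101712504), and the second in exon 1 of Krt16 (chr11:100248490-100248609) and of Krt14 (chr11:100207031-100207150).
Krt6a and Krt5: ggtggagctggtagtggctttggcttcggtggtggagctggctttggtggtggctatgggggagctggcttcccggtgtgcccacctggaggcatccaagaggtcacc
Krt16 and Krt14: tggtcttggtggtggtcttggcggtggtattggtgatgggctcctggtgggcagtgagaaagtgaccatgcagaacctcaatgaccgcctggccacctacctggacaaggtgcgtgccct

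Among the transcripts of 53 keratin genes, 36.2% of the 75-base windows of Krt6a occur in Krt6b and 4.5% in Krt5. Of the windows of Krt6b, 36.9% occur in Krt6a and 0.9% in Krt5. Of those of Krt16, 6.4% occur in Krt14, and no 75-base window of Krt17 occurs in another of these keratins. The read length and the treatment of multi-mapping reads are not given in the sources used here, so the split between Krt6a and Krt6b is uncertain, and the part of Krt5 and Krt14 reads in the other values was not tested.

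Levels are given in RPKM, the reads of a gene per unit of its length and of library depth. Because each table was normalized on its own, no level is set across them. Estimated depth is 45.9 to 61.9 M reads (M for mega) in Fvb/N libraries and 34.0 to 42.3 M in Dlx3 libraries. Marker sums follow the fraction labels: the 10 suprabasal keratinocyte markers sum to 44983 to 96615 RPKM in Fvb/N suprabasal libraries, against 5585 to 39796 in Fvb/N basal libraries. Suprabasal library 3 has the lowest of the suprabasal sums and the highest sum of the 9 basal markers in that fraction (4093 RPKM, against 739 to 1466 in the other 3), and basal libraries 1 and 2 have the highest suprabasal sums of their fraction (34870 and 39796 RPKM, against 5585 and 6510). Dlx3 itself was at 2.64 and 2.24 RPKM in KO suprabasal libraries, against 7.87 and 6.92 in WT suprabasal libraries, and at 2.35 and 2.16 RPKM in KO basal libraries, against 11.16 and 11.01 in WT basal libraries.

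In Fvb/N epidermis, Krt6a, Krt6b and Krt16 were higher in suprabasal than in basal cells in all 4 libraries, and Krt17 was lower. Krt6b had the largest difference, 10.7-fold on the log2(RPKM + 1) scale, on which low values are understated. Of all genes tested, 73.9% were called at an adjusted p under 0.05 (13.4% higher and 60.6% lower), and the 4 members were among them. Krt6a, Krt6b and Krt16 were thus in the smaller direction and Krt17 in the larger one. Beside the median of all genes tested, −0.55 on the log2 scale, the members' median was 1.99.

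Krt6a stood at 57.6, 52.7, 83.2 and 121 RPKM in suprabasal libraries 1 to 4, against 17.8, 18.3, 11.2 and 22.9 RPKM in basal libraries 1 to 4. The lowest suprabasal library was above the highest basal one, a criterion whose share over all genes was not counted. The log2 fold change was 2.06 (SE 0.29, limma adjusted p = 0.00024, n = 4 each). Krt6b stood at 102, 94.8, 85.1 and 261 RPKM in suprabasal libraries, against 19.0, 19.2, 4.83 and 6.12 RPKM in basal libraries. Suprabasal library 4 held more Krt6b than any other library, and basal libraries 1 and 2 held about as much as each other and more than basal libraries 3 and 4. The log2 fold change of Krt6b was 3.42 (SE 0.50, limma adjusted p = 0.000289), rank 34 from the top of 11608 genes.

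Krt16, the type I partner of Krt6, stood at 393, 390.0, 872 and 660.4 RPKM in suprabasal libraries, against 183, 209, 71.1 and 153 RPKM in basal libraries. The groups did not overlap, and suprabasal libraries 3 and 4 were above 1 and 2 (log2 fold change 1.92, SE 0.38, limma adjusted p = 0.0016). The share of all genes without overlap between the Fvb/N fractions was not counted, which limits this reading for Krt16 and for Krt17. Krt17 stood at 431, 451, 444 and 391 RPKM in suprabasal libraries, against 684, 653, 814 and 905 RPKM in basal libraries. Every suprabasal library was below every basal library, and Krt17 fell by 0.82 (SE 0.18, limma adjusted p = 0.00269), a difference close to the median of all genes. After the libraries were rescaled to a median change near 0, the Krt17 change was −0.17 and not called (adjusted p = 0.492). After quantile normalization, which also brought the median near 0, it was −0.98 and called (limma adjusted p = 0.000684). The size of the Krt17 fall in Fvb/N thus depended on the scaling.

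**Figure D1:**
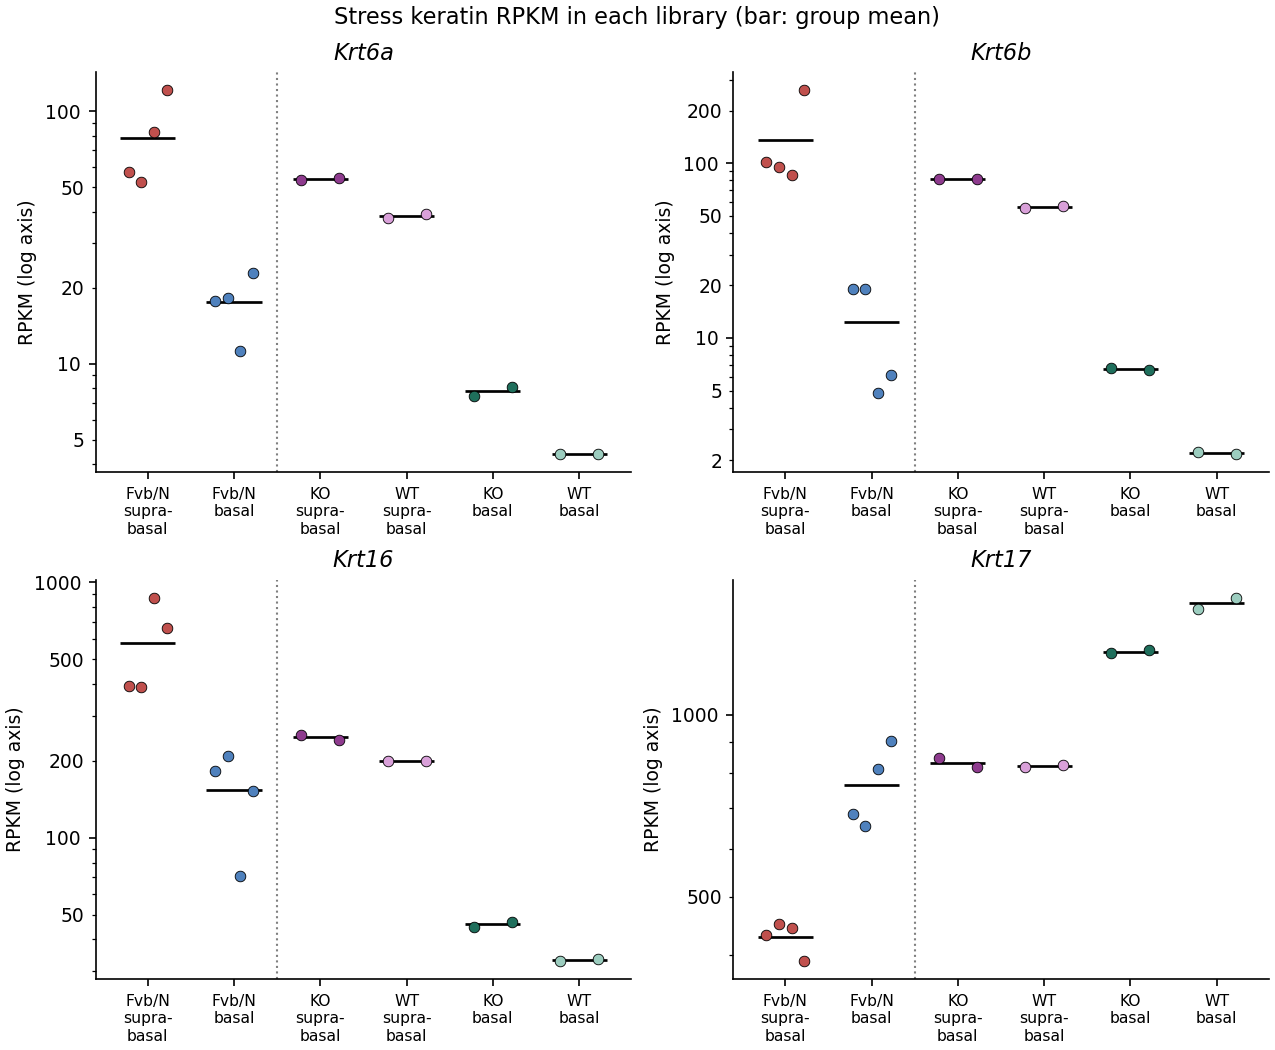
RPKM of Krt6a, Krt6b, Krt16 and Krt17 on log axes, with 1 point for each library, in replicate order from left to right within a group, and a bar at the group mean; the dotted line parts the Fvb/N table from the Dlx3 table, whose levels are not comparable. Krt6a, Krt6b and Krt16 are higher in suprabasal than in basal cells in both tables, with KO above WT in each fraction, whereas Krt17 is highest in WT basal libraries (1497 and 1561 RPKM).

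The labels end in one numeric code for replicates 1 and 2 of both Fvb/N fractions and in another for replicates 3 and 4. The code is treated here as a possible batch. Among replicates 1 and 2, the log2 fold changes of Krt6a, Krt6b, Krt16 and Krt17 were 1.56, 2.30, 0.998 and −0.60. Among replicates 3 and 4, those of Krt6a, Krt6b, Krt16 and Krt17 were 2.57, 4.54, 2.85 and −1.04. All 8 were called in limma fits of those libraries alone, and each of the 4 log2 differences was larger by more than 1.5 times among replicates 3 and 4. In the header of the RPKM table, however, the 4 basal libraries carry one code and the 4 suprabasal libraries the other. If that is right, the effects of such a batch and of fraction cannot be told apart. Without suprabasal libraries 3 and 4, the log2 fold changes were 1.64 for Krt6a, 3.12 for Krt6b, 1.45 for Krt16 and −0.78 for Krt17, all called.

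The same 4 directions were found in the Dlx3 table in both genotypes, where 89.6% of genes were called between the fractions of KO (19.9% higher and 69.7% lower) and 89.6% between those of WT (19.2% higher and 70.4% lower). The median over all genes was −0.39 in KO and −0.40 in WT. In KO, Krt6b averaged 81.4 ± 0.37 RPKM in suprabasal and 6.64 ± 0.083 RPKM in basal libraries (SD, n = 2 each), a log2 fold change of 3.43 (SE 0.03, limma adjusted p = 1.02e-12). In WT, Krt6b averaged 56.2 ± 1.15 RPKM in suprabasal and 2.203 ± 0.044 RPKM in basal libraries, a log2 fold change of 4.16 (SE 0.03, limma adjusted p = 3.47e-13), rank 32 from the top of 12146 genes. The WT basal values rest on an estimated 211 and 205 reads.

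Krt6a rose by 2.64 on the log2 scale in KO (SE 0.04) and by 2.87 in WT (SE 0.04), and Krt16 by 2.40 and 2.55 (SE 0.03 each). Krt17 fell by 0.61 in KO and by 0.89 in WT (SE 0.03 each), and it stayed called after rescaling (−0.18 in KO and −0.45 in WT) and after quantile normalization (−0.21 in KO and −0.37 in WT). All 8 limma adjusted p-values were at most 2.64e-08. The Dlx3 libraries of a group lie close together: the median difference between the 2 libraries of a group was 3.2% to 3.6% a gene, little more than counting noise, so these errors may hold no difference between animals.

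With opposite changes, the make-up of the 4 keratins differed between the fractions. Krt17 made up 43.8%, 45.6%, 29.9% and 27.3% of their summed RPKM in Fvb/N suprabasal libraries 1 to 4, against 75.7%, 72.6%, 90.3% and 83.3% in basal libraries. In the Dlx3 table its share was 68.6% and 68.4% in KO suprabasal libraries and 73.7% and 73.6% in WT suprabasal libraries. The share was 95.5% and 95.4% in KO basal libraries, against 97.4% and 97.5% in WT basal libraries. Krt17 was the most abundant of the 4 per length in every library except Fvb/N suprabasal libraries 3 and 4, where Krt16 was higher.

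**Figure D2:**
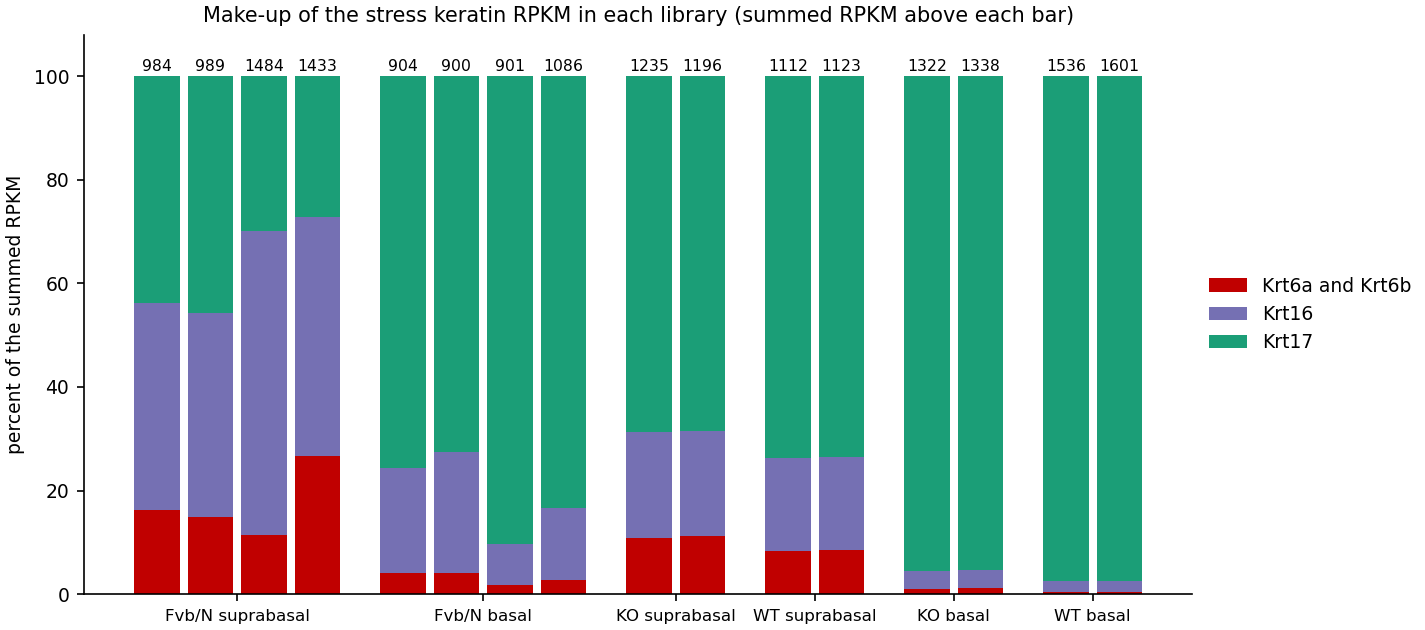
Each bar is 1 library and shows the percent of the summed RPKM of the 4 stress keratins held by Krt6a and Krt6b together, by Krt16 and by Krt17, with the sum in RPKM above it. Krt17 fills most of every basal bar, from 72.6% in Fvb/N basal library 2 to 97.5% in WT basal library 2.

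The 4 genes made up 1.12% to 3.09% of the summed RPKM of 55 keratin genes in Fvb/N suprabasal libraries, against 1.70% to 4.52% in Fvb/N basal libraries, so the ranges overlapped. Against Krt5, the basal type II keratin, Krt17 varied little among Fvb/N basal libraries, at 102, 100.4, 102 and 106 RPKM per 1000 RPKM of Krt5. In suprabasal libraries it stood at 2592, 2754, 261 and 872 per 1000, since Krt5 was 12.0-fold lower in the mean of the suprabasal libraries and Krt17 1.78-fold lower.

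Between genotypes, Krt6a, Krt6b and Krt16 exceeded their WT levels in both fractions of KO, and the largest difference was that of Krt6b in basal cells. In basal cells 7.21% of genes were called (4.23% higher and 2.98% lower), and all 4 members were. Krt6b was at 6.70 and 6.58 RPKM in KO basal libraries, against 2.23 and 2.17 in WT basal libraries, a 3.01-fold ratio of means. The log2 fold change was 1.25 (SE 0.03, limma adjusted p = 3.33e-08, n = 2 each), rank 24 from the top of 12146 genes. The pseudocount of 1 understates it: with a pseudocount of 0.1 it was 1.55.

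Krt6a was at 7.45 and 8.11 RPKM in KO basal libraries, against 4.40 in both WT basal libraries (log2 fold change 0.70, SE 0.04, limma adjusted p = 6.16e-06). Krt16 was at 44.8 and 47.0 RPKM in KO basal libraries, against 32.9 and 33.5 in WT basal libraries (0.46, SE 0.03, limma adjusted p = 1.86e-05). Both genes were higher in KO. Krt17 went the other way, at 1263 and 1277 RPKM in KO basal libraries, against 1497 and 1561 in WT basal libraries, and fell by 0.27 (SE 0.03, limma adjusted p = 0.000344).

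The basal keratins with which reads may be shared differed less as ratios of means, at 0.999 for Krt5 and 1.077 for Krt14 (KO over WT). In RPKM, however, the Krt14 difference was larger than that of Krt16, and the part of shared reads was not tested. Krt5 averaged 8479 ± 73.9 RPKM in KO basal and 8491 ± 168 RPKM in WT basal libraries (SD, n = 2 each), and Krt14 averaged 5983 ± 16.5 RPKM in KO basal and 5557 ± 81.2 RPKM in WT basal libraries. With Krt6a and Krt6b replaced by their sum, so that the split between them has no part, the log2 fold change was 1.02 (limma adjusted p = 8.94e-08).

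In suprabasal cells 37.3% of genes were called between the genotypes (21.6% higher and 15.7% lower), and Krt6a, Krt6b and Krt16 were among those higher. Krt6a was at 53.4 and 54.3 RPKM in KO suprabasal libraries, against 38.0 and 39.3 in WT suprabasal libraries (log2 fold change 0.47, SE 0.04, limma adjusted p = 5.66e-05). Krt6b was at 81.6 and 81.1 RPKM in KO, against 55.4 and 57.0 in WT (0.53, SE 0.03, limma adjusted p = 6.49e-06). Neither gene's groups overlapped, a criterion whose share over all genes was not counted.

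Krt16 was at 253 and 242 RPKM in KO suprabasal libraries, against 199 and 200.3 in WT suprabasal libraries (0.31, SE 0.03, limma adjusted p = 0.000133), and after quantile normalization the difference was 0.14 (adjusted p = 0.00759). Krt17 was at 847 and 818 RPKM in KO suprabasal libraries, against 819 and 826 in WT suprabasal libraries, so the groups overlapped. Its difference was 0.02 (95% interval −0.04 to 0.08, limma adjusted p = 0.637) and not called; after quantile normalization it was −0.14 and called (adjusted p = 0.00832).

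**Figure D3:**
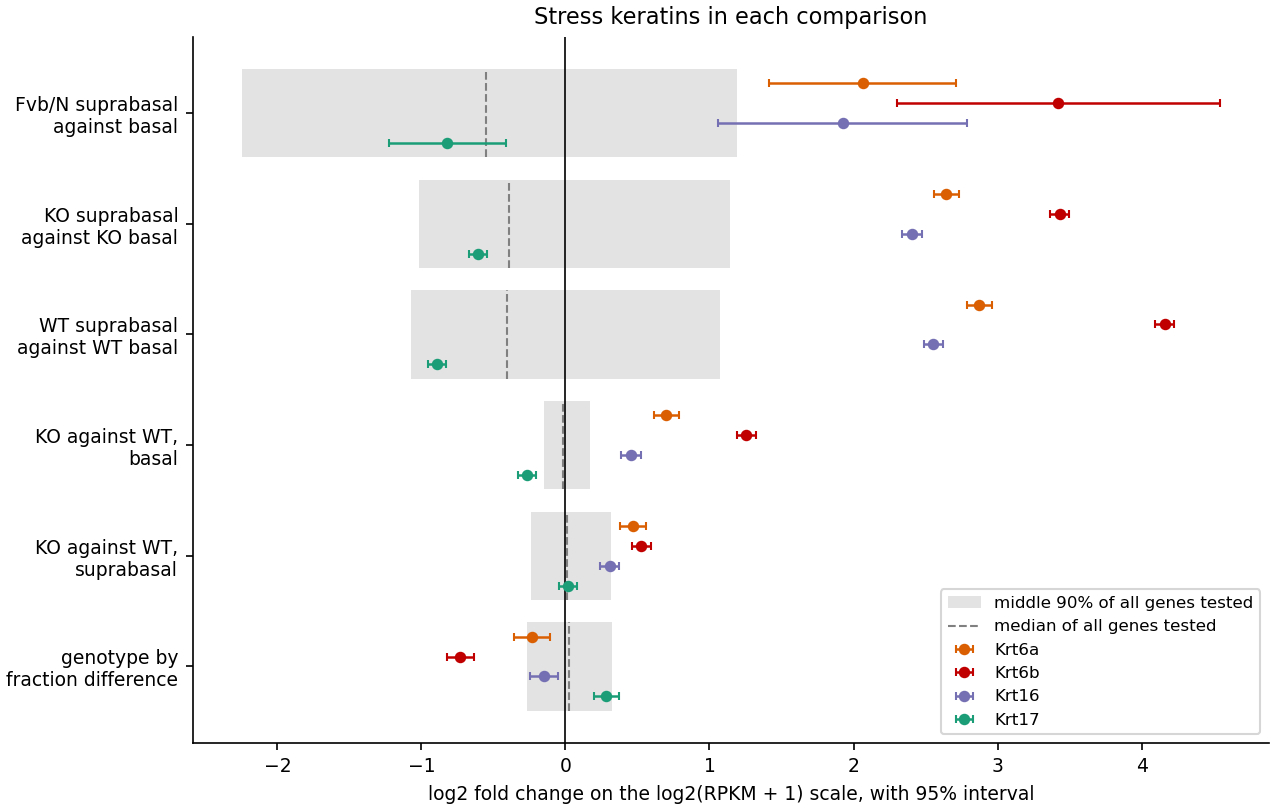
Log2 fold change of each member on the log2(RPKM + 1) scale with its 95% interval in the 6 comparisons, the first-named group over the second, with the grey band holding the middle 90% of all genes tested and the dashed line their median. Krt6b lies above the band in each of the 5 comparisons of groups and below it, at −0.73, in the difference between the KO and WT fraction changes.

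The order of levels in the Dlx3 table was the same for Krt6a, Krt6b and Krt16, with KO suprabasal highest, then WT suprabasal, KO basal and WT basal. No 2 of these groups overlapped, but with 2 libraries a group this is easily met, and its share over all genes was not counted. Krt17 was in the reverse order for the basal groups, with WT basal highest and KO basal next, while its KO and WT suprabasal libraries overlapped.

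The fraction difference itself was compared between genotypes as the KO change minus the WT change, for which 22.5% of genes were called (14.4% higher and 8.08% lower). It was smaller in KO for Krt6b, by −0.73 on the log2 scale (SE 0.04, limma adjusted p = 4.17e-05, rank 45 from the bottom of 12146 genes). For Krt17 the value was 0.28 (SE 0.04, limma adjusted p = 0.00178), a smaller fall in KO than in WT, and 0.15 after quantile normalization (adjusted p = 0.0459). Krt6a at −0.23 (adjusted p = 0.0186) and Krt16 at −0.15 (adjusted p = 0.0342) were called too, and Krt16 was at −0.34 after quantile normalization (adjusted p = 0.00101). Krt6a was no longer called without KO suprabasal library 1, WT suprabasal library 2 or WT basal library 2, with the highest adjusted p at 0.0632. Krt16 was no longer called without KO suprabasal library 2, KO basal library 2, either WT suprabasal or either WT basal library, with the highest adjusted p at 0.102.

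Krt6b changed against Krt6a as well as in level. The Krt6b to Krt6a ratio of RPKM was 1.77, 1.80, 1.02 and 2.15 in Fvb/N suprabasal libraries, against 1.07, 1.05, 0.43 and 0.27 in Fvb/N basal libraries, and the groups overlapped at suprabasal library 3. The ratio was 1.53 and 1.49 in KO suprabasal libraries, against 1.46 and 1.45 in WT suprabasal libraries. It was 0.90 and 0.81 in KO basal libraries, against 0.51 and 0.49 in WT basal libraries. Krt6b was therefore listed above Krt6a in every suprabasal library and below it in every basal library except Fvb/N basal libraries 1 and 2.

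The suprabasal markers also moved with genotype. All 10 of 10 were called higher in KO basal than in WT basal cells, with sums of 6046 and 6128 RPKM in KO basal libraries, against 4108 and 4135 in WT basal libraries, and none was at 0 in any of these groups. In suprabasal cells all 10 were higher in KO as well, with sums of 55039 and 54732 RPKM in KO libraries, against 47238 and 47551 in WT libraries. After quantile normalization 5 of the 10 were higher and 1 lower there, with a median of 0.19 in place of 0.37, while in basal cells all 10 stayed higher. The 9 basal keratinocyte markers summed to 7717 and 7631 RPKM in KO suprabasal libraries, against 8430 and 8520 in WT suprabasal libraries. Of them, 6 were lower and 1 higher in KO. In basal libraries they summed to 17114 and 16996 RPKM in KO and 16614 and 17024 RPKM in WT, with 1 higher and 1 lower. In these bulk samples, more suprabasal cells in a fraction and more RNA per cell cannot be told apart. The parts of suprabasal cells in the basal fraction and of basal cells in the suprabasal fraction were not tested.

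Set against Krt10, the suprabasal type I keratin, Krt6b and Krt16 differed in basal cells. Krt6b was at 2.36 and 2.31 RPKM per 1000 RPKM of Krt10 in KO basal libraries, against 1.16 and 1.13 in WT basal libraries. Krt16 was at 15.8 and 16.5 per 1000 in KO basal libraries, against 17.1 and 17.4 in WT basal libraries. Krt6b was thus higher in KO basal cells also per Krt10, and Krt16 was not. Krt6a stood between, at 2.63 and 2.84 per 1000 in KO basal libraries, against 2.29 and 2.28 in WT basal libraries. In suprabasal cells Krt6b was at 2.91 and 2.92 per 1000 in KO, against 2.29 and 2.34 in WT. Krt16 was at 9.005 and 8.71 per 1000 in KO suprabasal libraries, against 8.22 and 8.20 in WT suprabasal libraries, so per Krt10 it was higher in KO in suprabasal cells and lower in KO in basal cells.

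**Figure D4:**
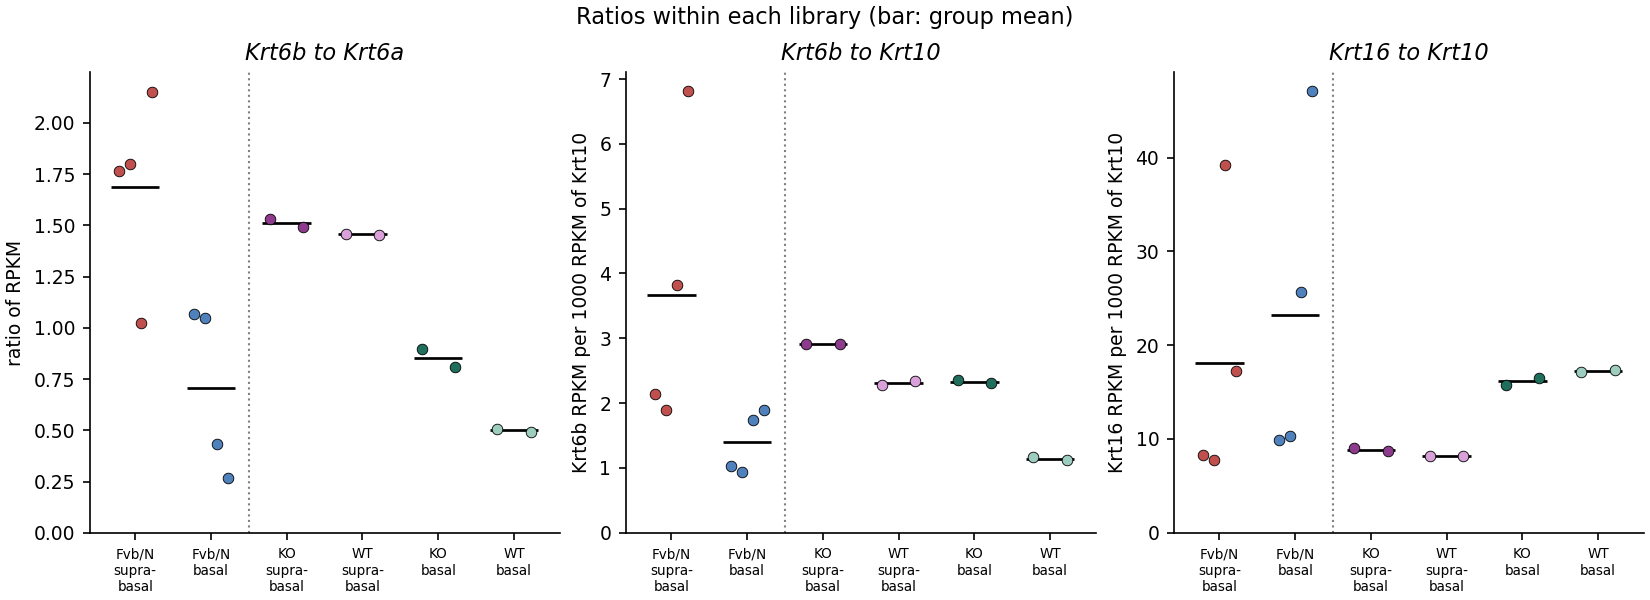
Ratios of RPKM within each library, 1 point a library with a bar at the group mean, for Krt6b over Krt6a and for Krt6b and Krt16 per 1000 RPKM of Krt10; the dotted line parts the Fvb/N and Dlx3 tables. The KO basal libraries lie above the WT basal libraries in the first 2 panels and below them in the third.

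Other cell types of the skin were followed by their markers. The 8 markers of the follicle outer root sheath and companion layer, where Krt6 and Krt17 are known to be expressed, summed to 143 to 164 RPKM in Fvb/N suprabasal libraries, against 237 to 282 in Fvb/N basal libraries, with 2 of the 8 higher and 6 lower. Other lists moved between the Fvb/N fractions too, where 13.4% of all genes tested were called higher and 60.6% lower. Counts of lower markers are to be read beside that share. Inner root sheath markers were higher for 6 of 7 and lower for 1 (sums of 182 to 266 RPKM in suprabasal and 75.3 to 88.3 RPKM in basal libraries). Cortex and matrix markers were higher for 7 of 9 (32.2 to 65.2 RPKM in suprabasal and 4.46 to 9.10 RPKM in basal libraries). In basal libraries only 3 of these 7 and 2 of these 9 averaged 1 RPKM or more, against 7 and 9 in suprabasal libraries. The markers below that level in basal libraries needed the suprabasal libraries to pass the filter, so these counts do not test a direction. Langerhans cell markers were lower for 7 of 7 (59.02 to 132 RPKM in suprabasal and 245 to 582 RPKM in basal libraries) and melanocyte markers for 5 of 6 (13.3 to 29.9 RPKM in suprabasal and 88.5 to 155 RPKM in basal libraries). In basal cells 4 of the 8 outer root sheath and companion layer markers were lower in KO and none higher (2 lower after quantile normalization), with sums of 261 to 266 RPKM in KO, against 286 in WT. In suprabasal cells 7 of the 8 were higher in KO (5 after quantile normalization), with sums of 199 to 204 RPKM in KO, against 173 to 175 in WT, and none was at 0. Of all genes tested, 2.98% were lower in KO basal cells and 21.6% higher in KO suprabasal cells. Krt75, the companion layer keratin, was at 2.58 and 2.72 RPKM in KO suprabasal libraries, against 1.43 and 1.54 in WT suprabasal libraries. The part of follicle cells in the stress keratin levels was not tested.

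Inner root sheath markers fell in KO suprabasal cells, 7 of 7, with sums of 48.9 to 50.1 RPKM in KO, against 76.4 to 77.05 in WT, and 2 of the 7 were lower in KO basal cells. Only 3 of the 7 averaged 1 RPKM or more in KO suprabasal libraries, against 7 in WT suprabasal libraries, so levels near the floor limit this count. Melanocyte markers (6 of 6) and Langerhans cell markers (7 of 7) were higher in KO suprabasal cells. In KO basal cells 3 of 6 melanocyte markers were higher and 1 of 7 Langerhans cell markers lower (none lower and 1 higher after quantile normalization). Of the measured markers in KO suprabasal cells, 3 of 4 fibroblast, 2 of 3 cortex and matrix, 1 of 4 sebaceous and 1 of 3 T cell markers were called higher and none lower. Over all genes, 21.6% were higher and 15.7% lower in KO suprabasal cells, and 4.23% higher and 2.98% lower in KO basal cells. In KO basal cells 3 of 3 measured red cell markers, 2 of 4 fibroblast, 2 of 3 T cell and 2 of 4 sebaceous markers were lower, and 1 sebaceous marker was higher. No endothelial marker of 5 reached the filter, and the parts of these cells in the members' differences were not tested.

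The other epidermal keratins, 16 of 20 measured, were taken as the wider family. In Fvb/N, 11 were higher and 4 lower in suprabasal cells, beside 13.4% higher and 60.6% lower over all genes. Among them were Krt75 (log2 fold change 2.30), Krt23 (2.97) and the basal keratin Krt14 (−3.08). Krt75 averaged 0.71 RPKM in Fvb/N basal libraries, under the 1 RPKM of the filter. In basal cells 8 were higher and 1 lower in KO, against a background of 7.21% called. The suprabasal keratins Krt78 (1.45), Krt1 (0.55) and Krt10 (0.56) had the smallest p there. The Krt6b difference (1.25) was above that of the differentiation pair Krt1 and Krt10 and below that of Krt78. In suprabasal cells 8 were higher and 5 lower in KO (5 and 5 after quantile normalization), beside 21.6% higher and 15.7% lower over all genes. Krt77 was at 0.83 and Krt4 at −1.27. Krt4 averaged only 0.30 RPKM in KO and 2.14 RPKM in WT suprabasal libraries, near the 1 RPKM of the filter.

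Of the 9 keratin-binding and junction partners, 7 were higher in KO basal cells and none lower (4.23% and 2.98% over all genes), with a median of 0.15 against −0.02 over all genes. Epiplakin (Eppk1), a cytolinker that binds keratin filaments, rose by 0.46 (SE 0.04, limma adjusted p = 0.000116), and envoplakin (Evpl) and periplakin (Ppl), plakins of the cornified envelope, rose by 0.25 each. Eppk1 had the same difference in suprabasal cells (0.46, limma adjusted p = 7.04e-05). There 4 of the 9 partners were higher and 1 lower (21.6% and 15.7% over all genes), and 1 higher and 4 lower after quantile normalization. In Fvb/N, 5 partners were higher and 2 lower in suprabasal cells, beside 13.4% higher and 60.6% lower over all genes. The trichoplein gene Tchp was at −1.40, the cytolinker Plec at −1.22 and Ppl at 0.73.

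Of the cytokines, growth factors and receptors known to induce stress keratins, 16 of 21 were measured in the Dlx3 table. In KO basal cells 3 were higher and none lower, beside 4.23% higher and 2.98% lower over all genes. All 3 were receptors, namely Ifngr1 for interferon gamma (0.38, SE 0.03, limma adjusted p = 0.000142), Il6ra (0.22) and Il1r1 (0.22). In KO suprabasal cells 9 were higher and 1 lower (7 and 1 after quantile normalization), beside 21.6% higher and 15.7% lower over all genes. Ifngr1 was at 0.38, the TNF receptor Tnfrsf1a at 0.21 and Ifngr2 at 0.23. In Fvb/N, 4 of 18 were higher and 7 lower in suprabasal cells, beside 13.4% higher and 60.6% lower over all genes, and 8 were higher and 3 lower after rescaling. Areg, an EGF receptor ligand, rose by 1.26, the interleukin 1 antagonist Il1rn rose by 1.24 and Tnf fell by 1.69. Areg averaged 1.95 RPKM in suprabasal and 0.23 RPKM in basal libraries, and Tnf averaged 0.14 RPKM in suprabasal and 2.84 RPKM in basal libraries. Both passed the 1 RPKM filter through the fraction where they are higher, so their direction was not tested.

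Epidermal activation genes, which rise with stress keratins in wounded or inflamed skin, had 16 of 29 measured in the Dlx3 table. In KO basal cells 7 of the 16 were higher and none lower, beside 4.23% higher and 2.98% lower over all genes. The cystatin-like Stfa2 (1.16), the envelope precursor Sprr1b (0.79) and heme oxygenase Hmox1 (0.89, limma adjusted p = 0.000723) led. Stfa2 and Sprr1b were also 10.2-fold and 7.19-fold higher in WT suprabasal than in WT basal cells, and the part of suprabasal cells in their difference was not tested. In KO suprabasal cells 7 were higher and 4 lower (7 and 5 after quantile normalization), beside 21.6% higher and 15.7% lower over all genes. The heat shock protein gene Hspb1 (0.73) and Stfa2 (0.52) were among those higher, while urokinase (Plau) fell by 0.21. In Fvb/N, 9 were higher and 8 lower in suprabasal cells, beside 13.4% higher and 60.6% lower over all genes. Il1f9 (1.89) and Slpi (1.52) were up and the matrix protein tenascin C (Tnc) down (−4.28). Slpi averaged 2.52 RPKM in suprabasal and 0.21 RPKM in basal libraries, so it passed the filter through the suprabasal libraries and its direction was not tested. The counts in Fvb/N were 10 higher and 5 lower after rescaling.

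In Fvb/N suprabasal cells, 3 of 30 transcription regulators of keratin genes were higher and 18 lower (5 and 8 after rescaling), shares near those of all genes tested (13.4% higher and 60.6% lower). The 3 with the smallest p were lower, the Hedgehog effectors Gli1 (−3.33) and Gli2 (−3.13) and the Nrf2 inhibitor Keap1 (−0.85). Of the 29 measured in the Dlx3 table, 4 were higher and 1 lower in KO basal cells, with a median of 0.04 against −0.02 over all genes. Klf4 (0.16), Fosl2 (0.17) and Cebpa (0.15) were the 3 with the smallest p. In KO suprabasal cells 9 of 29 were higher and 6 lower (6 and 10 after quantile normalization), beside 21.6% higher and 15.7% lower over all genes. The AP-1 subunit Junb at 0.47 and Cebpa at 0.38 were higher and Tfap2a was lower at −0.25. Of 10 genes of dividing cells, all 10 were lower in Fvb/N suprabasal cells, while 2 of 10 were lower in KO basal cells, Cdc20 (−0.20) and Ccnb1 (−0.18), and 4 of 10 were higher in KO suprabasal cells (1 after quantile normalization).

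The genes most like each member were ranked by the mean of 2 Pearson correlations of log2(RPKM + 1), over the 8 Fvb/N and over the 8 Dlx3 libraries, among 7243 genes; libraries of a fraction share their cells, so most of each correlation is the fraction difference. For Krt6b the 3 nearest were Hrnr (mean r = 0.993), the filaggrin family member Flg2 (0.992) and Gsto1 (0.991). Hrnr, a gene of the cornified layer, averaged 3.997 RPKM in KO basal and 0.98 RPKM in WT basal libraries. For Krt6a they were Flg2 (0.984), Ccdc120 (0.983) and Cpe (0.982).

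Krt16 was nearest to the transcription factor gene Egr2 (mean r = 0.991), Sprr1a (0.980) and Irx3 (0.977). Krt17 was nearest to genes of general cell functions, the ATP synthase subunit gene Atp5b (0.990), Gatd1 (0.988) and the RNA-binding protein gene Hnrnpl (0.988). Atp5b averaged 265 RPKM in Fvb/N suprabasal and 438 RPKM in Fvb/N basal libraries. No member was among the 3 nearest genes of another.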

How the data were processed

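The deposited tables hold RPKM for each gene and library, per the file headers, from reads mapped to mm10 with TopHat; the submitters' processing notes name TopHat2 2.1.1, bcl2fastq 2.20.0.422 and Partek. The authors' deposited comparison tables also hold a linear ratio between groups with a q-value per gene, and these ratios and q-values were read but support no result here. The gene annotation and the read length are not given in the sources used here. All sample columns of the RPKM tables were used.

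RPKM plus 1 was taken to log2. Genes at 1 RPKM or more in at least 4 (Fvb/N table, 11608 genes) or 2 libraries (Dlx3 table, 12146 genes) were fitted in limma 3.58.1 under R 4.3.3 with an intensity trend, 1 fit for each table, with 6 and 4 residual degrees of freedom. The p-values were adjusted by Benjamini-Hochberg across every gene tested in a comparison, and a gene was called under 0.05. The fit was tested on simulated data with planted changes. Alternatives were a pseudocount of 0.1, no filter, rescaling by the median ratio, quantile normalization, a replicate block, each library left out, the numeric code in the labels and the sum of Krt6a and Krt6b. Depth was estimated from how finely low RPKM values, multiplied by gene length, are spaced, and numbers of reads from that depth and the transcript length, so both are approximate. Gene models, positions and sequences are from GENCODE M21, and windows and identities were computed from its transcripts. Python 3.11.15, pandas 2.3.3, numpy 2.4.6 and matplotlib 3.10.9 made tables and figures.

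The members, the 6 gene lists of related processes and the 12 marker lists were chosen with earlier results of these data known. From each of the 6 lists the 3 measured genes with the smallest p in a comparison could be named, besides the members and Dlx3. The nearest genes by correlation were sought where both tables average 5 RPKM or more, passing over predicted genes and olfactory receptors.

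Deviations from group means of same-numbered Fvb/N suprabasal and basal libraries correlated at 0.507, 0.567, 0.555 and 0.121 across genes, all over 0.1, so their numbers may pair them. The main fit does not use this pairing, and the replicate block was run only as an alternative. Unlike-numbered libraries with the same code in the labels correlated as well (suprabasal 1 with basal 2 at 0.587, 2 with 1 at 0.36 and 3 with 4 at 0.467, but 4 with 3 at 0.014), so number and code are not cleanly separated. In the Dlx3 table such correlations were between −0.047 and 0.056. With 2 libraries a group the deviations mirror each other and are little more than counting noise, so these values cannot decide whether the libraries are paired.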

Additional observations from a re-analysis of the deposited data

Results flagged for a closer look

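The change between fractions differed between the genotypes for all 4 members, as the KO log2 fold change minus the WT one, tested as an interaction in limma over all genes. Krt6b gave −0.73 (adjusted p = 4.17e-05) from 3.43 in KO and 4.16 in WT. Krt17 gave 0.28 (adjusted p = 0.00178) from −0.61 in KO and −0.89 in WT, and 0.15 (adjusted p = 0.0459) after quantile normalization. Krt6a gave −0.23 (adjusted p = 0.0186) and Krt16 −0.15 (adjusted p = 0.0342; −0.34 after quantile normalization), and both depend on single libraries. Among the 10 suprabasal keratinocyte markers, 8 were called in the same direction as Krt6b, with a median of −0.41, and the part of suprabasal cells in the basal fraction was not tested.

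In Fvb/N suprabasal cells 1 library stood apart for Krt6b: library 4 was at 261 RPKM, against 85.1 to 102 RPKM in the other 3. The gap to the nearest was 0.906 of the whole range of the group, in a check that chance passes in about 1 of 20 groups and that was made in 8 groups here. Without that library the Krt6b log2 fold change was 3.06 (adjusted p = 0.00114).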

How the results depend on the processing

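Under every other setting tried the calls and directions of Krt6a, Krt6b and Krt16 between fractions and between genotypes held throughout. Krt17 between the Fvb/N fractions was −0.17 and not called after rescaling (adjusted p = 0.492), but −0.98 and called after quantile normalization (limma adjusted p = 0.000684). Krt17 between KO and WT suprabasal cells was −0.14 and called after quantile normalization (adjusted p = 0.00832). With 1 library left out, that difference lay between −0.0074 and 0.043 and was never called. Without the filter, the interactions of Krt6a (−0.23, adjusted p = 0.0615) and Krt16 (−0.15, adjusted p = 0.0946) were not called. With 1 library left out, Krt6a lay between −0.28 and −0.18 (3 of 8 fits not called) and Krt16 between −0.18 and −0.12 (6 of 8). The cause of these losses was not tested. Quantile normalization moved Krt16 between KO and WT suprabasal cells to 0.14 and the interactions of Krt16 and Krt17 to −0.34 and 0.15, all still called. The number of genes called between KO and WT basal cells, 876, fell to 463 to 793 with 1 library left out, and was 463 and 543 without KO basal library 1 or 2 and 479 and 463 without WT basal library 1 or 2. The number called in the interaction, 2737, was 1600 to 2311, with 1674 without KO basal library 1, 1789 without WT suprabasal library 1 and 1600 without WT basal library 2.

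Scaling moved the balance of all calls. Higher against lower genes were 1554 and 7030 in Fvb/N and 3492 and 3972 after rescaling, 2416 and 8467 between KO fractions and 4601 and 5134 after rescaling, and 2336 and 8545 between WT fractions and 4627 and 5131 after rescaling. Between KO and WT they were 514 and 362 in basal cells (585 and 210 after rescaling), 2620 and 1911 in suprabasal cells (1935 and 2346 after quantile normalization) and 1755 and 982 in the interaction (1059 and 1362 after quantile normalization). With the replicate block, the Fvb/N fit called 8827 genes, against 8584 without it, with Krt6b at 3.42 (adjusted p = 0.000184) and no call of a member changed; in the Dlx3 table the block gave 823 genes between KO and WT basal cells and changed no member's call either. Depth limits Krt6b most in WT basal cells, where it rests on the fewest reads.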
